A study of Mus musculus with 9 samples.

Results

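Radial spoke and axonemal regulatory genes were examined in juvenile testes lacking Spo11, the gene of the topoisomerase-like protein that makes meiotic DNA breaks. The set held 10 genes, each found by its symbol as the only gene of a probe in the platform annotation, among 7117 genes with such a probe. Each gene had 1 probe, so no second probe could be set beside it. The genes were chosen by their function with their log ratios at 15 days in view. Those ratios describe the set, and p-values from them are no test of it. Ratios at 12 days came from other arrays.

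Each array compared total RNA of whole testis from a Spo11-/- mouse and a wild-type mouse on spotted cDNA, 1 dye for each. There were 4 arrays at 15 days, all with knockout RNA in Cy3. Of 5 arrays at 12 days, replicates 1, 4 and 5 had knockout RNA in Cy5 and replicates 2 and 3 in Cy3. The mice of a pair came from 1 litter, per the series' design text. The labels do not say whether any arrays had RNA in common, so p-values measure only the spread between arrays. They also leave out the strain and the form of the Spo11 allele.

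The axoneme is the microtubule core of cilia and of the sperm tail. Radial spokes reach from its outer doublets to the central pair and pass signals to the dynein motors. The dynein regulatory complex links neighbouring doublets and restrains sliding. Tektins and other inner proteins line the doublet wall, assembly factors fold the dynein arms in the cytoplasm before transport, and centrins are calcium-binding proteins of the centriole and basal body. In mouse testis many of these genes are first transcribed in pachytene spermatocytes, before any tail is built. RFX factors, which bind the X-box, and the MYB-family factor encoded by Mybl1 are known regulators of ciliary and pachytene genes.

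RefSeq (GRCm38.p6) gave a window from 250 bases before to 50 bases after the transcription start for 9 of the 10 genes. The windows were read because the genes moved together at 15 days. The X-box core GTTGCC, searched on both strands, lay in the windows of 3 of the 9 genes (Tekt2, Drc1 and Dnaaf2), against 14.1% of 27025 genes. An imperfect inverted repeat, GTNNC followed after 3 or 4 bases by GNNAC, lay in 5 of the 9 (Cfap206, Ccdc65, Tekt2, Dnaaf2 and Rsph9), against 14.5% of genes. It reads the same on both strands, overlaps that core in Tekt2 and Dnaaf2, and was written down after these windows had been read, so its count is a description only. In Rsph9 it spanned the start, from 6 bases before it. The 100 bases just before the start are shown for the genes with either match there, with the matches in capitals.
Cfap206, chr4:34730207-34730306, minus strand: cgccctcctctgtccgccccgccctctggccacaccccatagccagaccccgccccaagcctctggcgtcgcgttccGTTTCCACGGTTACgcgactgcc
Ccdc65, chr15:98708094-98708193, plus strand: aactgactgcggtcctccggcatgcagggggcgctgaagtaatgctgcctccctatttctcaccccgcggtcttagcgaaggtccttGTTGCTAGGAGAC
Tekt2, chr4:126325689-126325788, minus strand: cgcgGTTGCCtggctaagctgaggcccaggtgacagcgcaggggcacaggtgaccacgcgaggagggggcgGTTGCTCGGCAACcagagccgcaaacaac
Dnaaf2, chr12:69198430-69198529, minus strand: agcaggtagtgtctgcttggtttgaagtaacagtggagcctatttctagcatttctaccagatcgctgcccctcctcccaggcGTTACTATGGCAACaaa
Drc1, chr5:30281293-30281392, plus strand: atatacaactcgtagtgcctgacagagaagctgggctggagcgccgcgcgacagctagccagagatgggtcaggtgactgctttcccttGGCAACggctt
The MYB site AACNGTC was found for Dnaaf2 alone (9.17% of genes) and CAACTG for none (15.4%). The cyclic AMP response element TGACGTCA was found for none (2.03%), and its shorter core TGACG for Cetn4 and Cfap52 (23.0%).

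The deposited values are log ratios, read here as log2, and their direction is not settled. Read as Cy5 over Cy3, a 15-day value below 0 means more RNA in the knockout. Read as knockout over wild type, the same value means less. All 4 arrays at 15 days had the dye orientation of 12-day replicates 2 and 3, yet correlated with replicate 3 at r = -0.381 to -0.33 and with replicate 2 at -0.254 to -0.106 across probes. Values are therefore given with the sign as deposited unless stated. The readings differ in sign on arrays with knockout in Cy3, which include all arrays at 15 days, and not on those with knockout in Cy5. In whole testis, fewer cells of a type and less RNA per cell cannot be told apart.

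All 10 genes lay below 0 on all 4 arrays at 15 days, whereas 19.2% of 11391 features with 4 values did. The mean was below -1 for 7 genes and between -1 and 0 for 3. The median of the 10 means was -1.58, against 0.0175 over all 12198 features tested. In the limma fit across these features each of the 10 had an adjusted p under 0.05, where 5.37% of features passed below 0. The genes were chosen with these ratios in view, so that count is no test of the set. Nothing is read from it or from its contrast with the 5.37%. All 4 arrays had 1 dye orientation, so a difference between genotypes and a probe's own dye effect cannot be told apart at 15 days.

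The radial spoke genes covered a wide range at 15 days. Cfap206, whose product ties a spoke to the doublet, lay at -3.28, -3.61, -2.68 and -1.91 on replicates 1 to 4. It was the lowest of all features on replicates 1, 2 and 4 and the 3rd lowest on replicate 3, and its mean was -2.87 ± 0.75 (SD, n = 4), a 7.31-fold ratio. Rsph1, a spoke head protein, lay at -2.07, -1.97, -1.87 and -1.01, with a mean of -1.73 ± 0.49 (SD, n = 4). Rsph3a, a spoke stalk protein, lay at -1.25, -1.86, -2.18 and -0.93, with a mean of -1.56 ± 0.57 (SD, n = 4). It has a near-identical copy, Rsph3b, that a spotted cDNA may not tell apart. Rsph9, a second spoke head protein, lay at -0.17, -1.35, -1.01 and -0.33, with a mean of -0.715 ± 0.56 (SD, n = 4). Rsph1 was lower than Rsph9 on each of the 4 arrays, although their ranges overlapped, and 27.9% of features lay below Rsph9 on replicate 1.

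Both genes of the dynein regulatory complex were low at 15 days. Ccdc65 lay at -1.99, -2.31, -1.9 and -0.99, with a mean of -1.80 ± 0.57 (SD, n = 4). Drc1, whose product is a scaffold of the complex, lay at -0.9, -1.66, -0.58 and -0.91, with a mean of -1.01 ± 0.46 (SD, n = 4). Ccdc65 was the lower of the 2 on every array.

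Among the inner proteins, Cfap52 lay at -1.62, -1.95, -2.41 and -1.07, with a mean of -1.76 ± 0.56 (SD, n = 4). The tektin gene Tekt2 lay at -0.68, -0.76, -0.74 and -0.02, with a mean of -0.55 ± 0.35 (SD, n = 4). Replicates 1 to 3 were close to each other for Tekt2, and replicate 4 was close to 0. Dnaaf2, an assembly factor of the dynein arms, was the most even of the 10, at -0.67, -0.74, -0.76 and -0.58, with a mean of -0.688 ± 0.081 (SD, n = 4). Cetn4, a centrin of ciliated cells, lay at -1.6, -1.91, -1.73 and -1.21, with a mean of -1.61 ± 0.30 (SD, n = 4).

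Replicate 4 gave the value nearest 0 for 8 of the 10 genes at 15 days, Drc1 and Rsph9 being the exceptions. It did so for 46.5% of the 2191 features below 0 on all 4 arrays, and its log2 ratios had the smallest SD of the 4 arrays (0.31, against 0.39 to 0.47). On each array the set was far down nonetheless: between 0.121% and 0.211% of features lay below its median.

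**Figure D1:**
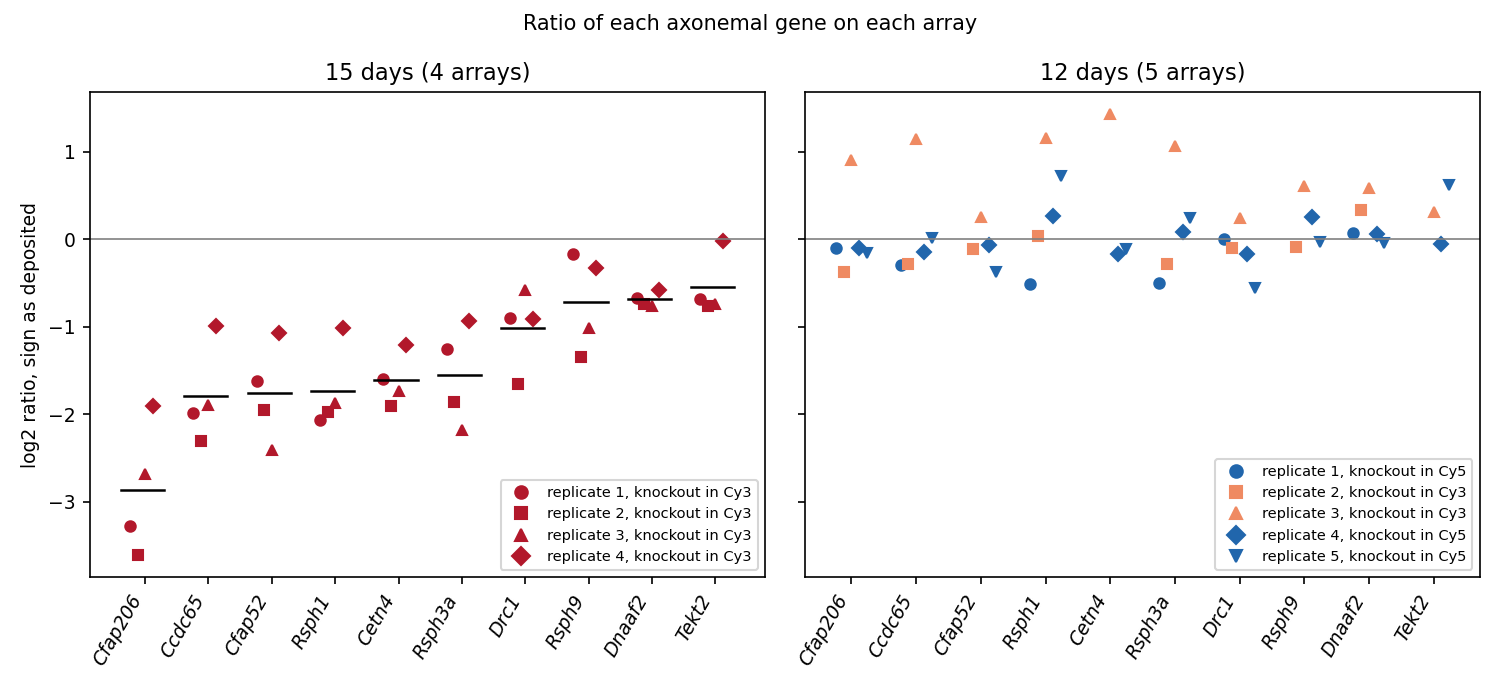
Log2 ratio of each of the 10 genes (horizontal axis) on each array, sign as deposited, with 15 days on the left and 12 days on the right. Points are arrays, shapes are replicates, colours give the knockout's dye and black lines are 15-day means; all 15-day points lie below 0, and triangles pointing up in the 12-day panel mark replicate 3, on which all 10 genes lie above 0.

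The order of the 15-day means ran from Cfap206 through Ccdc65, Cfap52, Rsph1, Cetn4, Rsph3a, Drc1, Rsph9 and Dnaaf2 to Tekt2. The 5 genes from Ccdc65 to Rsph3a lay between -1.80 and -1.56, a range smaller than the SD of each of them. Tekt2, Dnaaf2 and Rsph9 were likewise within 1 SD of Rsph9 of each other.

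At 12 days the set did not share a sign across arrays as deposited, but these arrays had both dye orientations. On replicate 3 all 10 genes lay above 0, from 0.24 for Drc1 to 1.43 for Cetn4, with a median of 0.76 that exceeded 99.5% of features. On the other 4 arrays the median of the set lay between -0.2 and -0.039. Read as Cy5 over Cy3, the medians gave less RNA in the knockout on replicates 1, 3, 4 and 5. Replicate 2, with a median of -0.105, gave more on that reading. Replicate 3 was the highest 12-day array for 9 of the 10 genes, against 16.2% of features tested, the exception being Tekt2 on replicate 5. Features tested had at least 4 values, whereas Cetn4 and Tekt2 had 3. As replicate 3 correlated below 0 with the arrays that chose the genes, this count is a description.

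The 12-day values of single genes show how far replicate 3 stood apart with signs as deposited. Cfap206 lay at 0.91 on replicate 3 and at -0.1, -0.37, -0.1 and -0.161 on replicates 1, 2, 4 and 5. Ccdc65 lay at 1.14 there, and at -0.3, -0.28, -0.15 and 0.011 on the others in the same order. For both genes the other 4 arrays lay close together. Rsph3a lay at 1.06, with -0.5, -0.28, 0.08 and 0.238 on the others. Rsph1 lay at 1.16 and was also high on replicate 5 (0.724) and replicate 4 (0.27), with 0.04 on replicate 2 and -0.51 on replicate 1. Cetn4 had 3 values, 1.43 on replicate 3 against -0.17 and -0.107 on replicates 4 and 5.

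The remaining genes moved less at 12 days. Drc1 lay at 0.24 on replicate 3, at -0.554 on replicate 5, and between -0.17 and 0.0 on replicates 1, 2 and 4. Cfap52 lay at 0.25 on replicate 3 and at -0.11, -0.07 and -0.37 on replicates 2, 4 and 5. Rsph9 lay at 0.61 on replicate 3 and at -0.09, 0.25 and -0.029 on the same 3 arrays. Tekt2 had 3 values, 0.31, -0.05 and 0.619 on replicates 3 to 5. Dnaaf2 lay at 0.33 and 0.58 on the 2 arrays with knockout in Cy3, and at 0.07, 0.06 and -0.049 on the 3 with knockout in Cy5. It was the only one of the 6 genes with 5 values whose orientations did not overlap, as 16.8% of 8663 features did not.

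**Figure D2:**
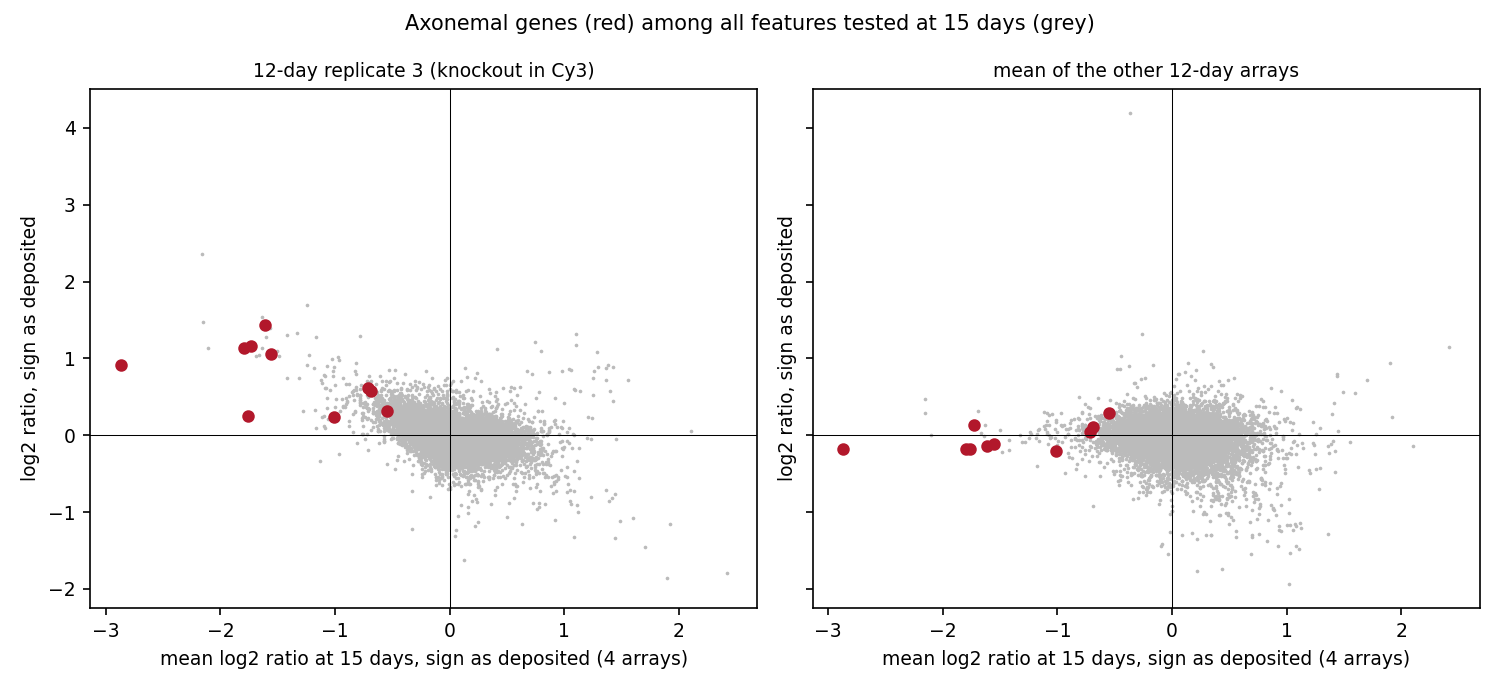
Each grey point is a feature tested at 15 days, with its mean log2 ratio at 15 days on the horizontal axis and, on the vertical axis, its log2 ratio on 12-day replicate 3 (left) or the mean of the other 12-day arrays (right), signs as deposited. The 10 axonemal genes (red) lie at 0.24 to 1.43 on replicate 3 and closer to 0 on the mean of the other arrays, where Tekt2, at 0.31 on replicate 3, is hardly lower.

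The 12-day arrays were fitted with a knockout term and a dye term, reading ratios as Cy5 over Cy3, and 8 of the 10 genes had enough values. Cetn4 and Tekt2, without values on replicates 1 and 2, could not be fitted. By limma none of the 8 passed (adjusted p = 1.0 each), where 0% of 10075 features passed and 2.67% (269) had an unadjusted p under 0.05. Of the 8 genes, 1 had an unadjusted p under 0.05, Dnaaf2 at -0.214 (SE 0.084). All 8 estimates were below 0, from -0.288 (SE 0.20) for Ccdc65 to -0.0747 (SE 0.15) for Rsph9, with a median of -0.205 against -0.00575 over all features. The others were Rsph3a (-0.225), Rsph1 (-0.219), Cfap206 (-0.195), Drc1 (-0.156) and Cfap52 (-0.145).

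This shared sign rested on replicate 3. Because that array correlated below 0 with the arrays that chose the genes, the shared sign is a description only. Without replicate 3 the median of the 8 estimates was 0.0638, with Cfap206 at 0.125, Rsph3a at 0.11 and Ccdc65 at 0.0668. Cfap52 (-0.055), Drc1 (-0.0707) and Dnaaf2 (-0.152) were the 3 below 0. Replicate 2 was then the only array with knockout in Cy3. Without replicate 2 all 10 genes could be fitted, with a median of -0.388, and replicate 3 was the only such array. If the 12-day ratios are instead knockout over wild type as they stand, the 8 genes had a median of 0.102 with 2 below 0. None of them passed limma in that fit either, with adjusted p from 0.60 to 0.95.

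**Figure D3:**
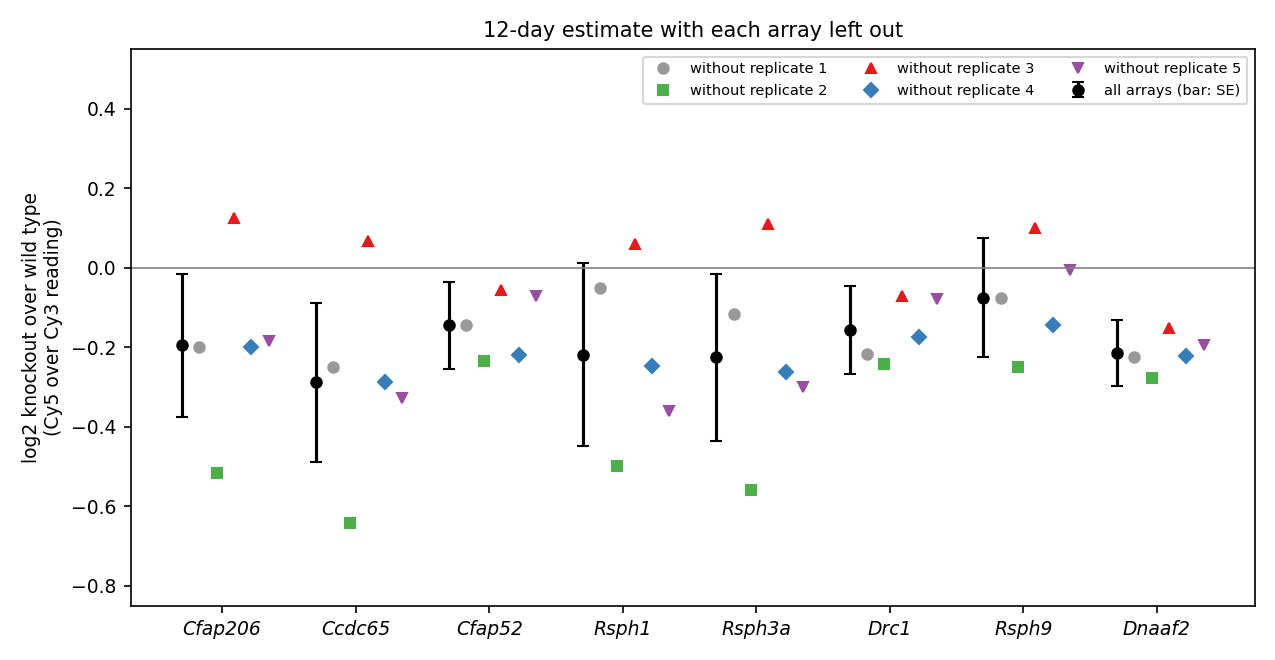
Estimated log2 knockout over wild-type ratio at 12 days (vertical axis, Cy5 over Cy3 reading) for the 8 genes that could be fitted. Black points with bars are the estimate from all arrays ± SE and coloured points leave out 1 array; all black points lie below 0, and without replicate 3 (red) 5 of 8 genes lie above 0.

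Over all 9 arrays the 6 genes with complete values followed each other. Pearson's r between pairs ran from 0.732 (Rsph3a and Drc1) to 0.979 (Cfap206 and Ccdc65), over 15 pairs that share arrays and the gap between the ages. The 15-day ratios were in view when the genes were chosen, so all r values here are a description only. Drc1 was the least like the rest, at r = 0.83 with the mean of the other 5, and Ccdc65 the most, at 0.991. Among 5375 other genes with 9 values, those most like the mean of the 6 were Haus5 (r = 0.99), a subunit of the augmin complex of spindle microtubules, and Hsp90aa1 (0.989), a chaperone. They were followed by Mrgbp (0.988), Asrgl1 (0.988), an asparaginase, and Wdr92 (0.985), itself an assembly factor of the dynein arms. The 15-day means of these 5 genes ran from -1.64 for Asrgl1 to -0.522 for Haus5, and all 5 lay below 0 on every 15-day array.

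Other genes of the axoneme were less uniform at 15 days. Of 148 genes on lists of radial spoke, dynein regulatory, inner, assembly, centriole, central pair and regulator genes, 33 were tested. Of these, 8 passed below 0 and 5 above 0, where 7.2% and 4.04% of the 6958 genes tested passed. Their median was -0.158, against -0.02 over all genes. With local medians subtracted 14 passed below 0 and 5 above. These lists were chosen with earlier results of these data known, so the counts are a description only.

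The tested radial spoke genes were both low. Calm2, one of 3 genes for calmodulin, which sits in the spoke among many other places, lay at -0.903 (SE 0.10, limma adjusted p = 0.0023). The genes for calmodulin share coding sequence, so this value is uncertain. Ak8, an adenylate kinase gene, lay at -1.67, -1.53, -1.07 and -0.25 on replicates 1 to 4 (mean -1.13, adjusted p = 0.012). Ak8 was thus nearest 0 on replicate 4, as most of the set was.

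Of 4 inner protein genes Enkur passed at -0.88 (limma adjusted p = 0.005), and the means of all 4 were below 0. Of 4 assembly factor genes Wdr92 passed at -0.617 (adjusted p = 0.009), again with all 4 means below 0. Ruvbl2, an ATPase that works with such factors, lay at -0.51 and missed the threshold (adjusted p = 0.057). Of 3 genes of the dynein regulatory complex Ccdc153 alone passed, at 0.50 (adjusted p = 0.032). It lay opposite to Ccdc65 and Drc1 on every array.

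The centrins did not share a sign. Cetn2 lay above 0 on all 4 arrays, at 0.48, 0.31, 0.78 and 0.68 (mean 0.562, limma adjusted p = 0.017). Cetn3 lay below 0 on all 4, at -0.14, -0.58, -0.655 and -0.33 (mean -0.426, adjusted p = 0.044). Cetn4 was lower than either on every array. Of the other centriole genes Plk4, the kinase that starts centriole duplication, passed at -0.403 (adjusted p = 0.037) and Cenpj, a centriole elongation factor, at -0.458 (adjusted p = 0.041).

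Central pair genes went both ways. Kif9, a kinesin gene, passed at -0.511 (limma adjusted p = 0.029), whereas Ak7 (0.80, adjusted p = 0.01) and Cfap47 (0.813, 3 arrays, adjusted p = 0.0069) passed above 0. Among 6 regulators of ciliary gene transcription only Taf7l passed, at 0.778 (adjusted p = 0.005). The RFX factor genes Rfx1 (0.277), Rfx2 (0.255) and Rfx3 (0.0525) and Mybl1 (-0.12) did not pass. Cfap47, Taf7l and Cetn2, the 3 X-linked genes tested on these lists, were all above 0. Among 208 X-linked genes, 13.9% passed above 0 and 0.481% below. None of the 10 genes of the set is X-linked.

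Of these 13 calls, those of Calm2, Enkur, Wdr92, Cfap47, Ak7 and Taf7l held without each array in turn. Ak8 missed the threshold without replicate 3 (limma adjusted p = 0.055), and Cetn2 without replicate 3 (0.071) or 4 (0.054). Plk4 missed it without any 1 array (0.055 to 0.13), and Ccdc153, Cetn3, Cenpj and Kif9 without replicate 2, 3 or 4 (0.065 to 0.15). The number of calls was 8 without replicate 2 and 6 without replicate 3.

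**Figure D4:**
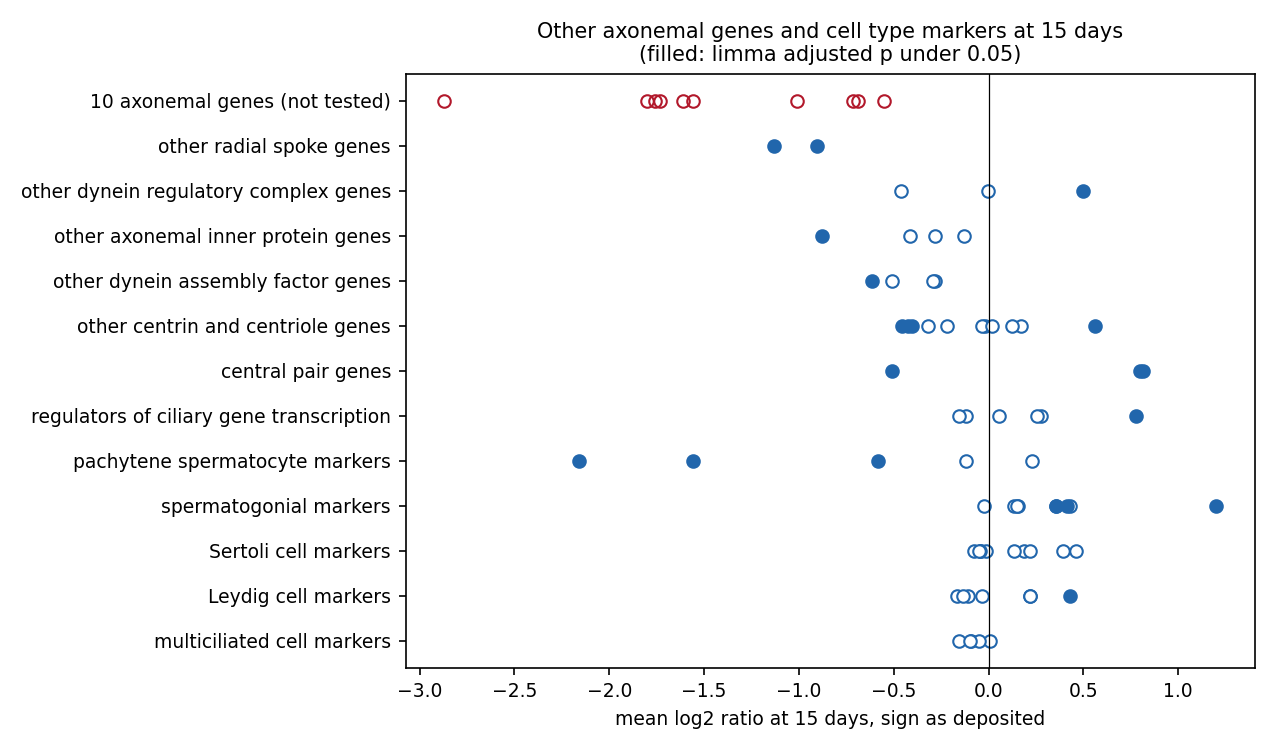
Mean log2 ratio at 15 days (horizontal axis, sign as deposited) of the 10 axonemal genes (open red, drawn without calls) and of genes on each list (rows). Blue points are genes, filled where the limma adjusted p was under 0.05; the 10 genes lie between -2.87 and -0.55, and multiciliated cell markers between -0.158 and 0.005.

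Some markers of germ cell stages also passed at 15 days, where 7.2% of all genes tested passed below 0 and 4.04% above. The marker lists were chosen with earlier results of these data known, so the counts are a description only. Of 5 pachytene spermatocyte markers 3 passed below 0, Slc2a3, a glucose transporter gene, at -2.16, Lyar at -1.56 and Ccnb1ip1 at -0.583. Sycp3, present from early prophase on, lay at 0.23 and did not pass. Of 9 spermatogonial markers 3 passed above 0, with a list median of 0.353. None of 10 Sertoli cell markers passed, and 1 of 7 Leydig cell markers did, above 0. Of 15 markers of multiciliated cells, which line the efferent ducts, 5 were tested and none passed. Ratios give no level, so whether any marker was near background is unknown, and the part of these cell types in the ratios of the set was not tested. On 12-day replicate 3 the pachytene markers Slc2a3 and Lyar also lay above 0, at 2.36 and 1.395. The other pachytene markers lay at 0.44 (Ccnb1ip1), 0.05 (Sycp3) and 0.05 (Mybl1) there. Slc2a3 lay above 0 on the other 12-day arrays too, from 0.08 to 0.61.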

How the data were processed

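Per the series' design text, the authors used a GenePix 4000A scanner and GenePix 3.0 for spot extraction and flags, median centring, and SAM for calls. The deposited values are log ratios, read here as log2; their log base, background correction and direction are not stated there. The members and lists were chosen with earlier results of these data known. Of 16128 probes, 11628 to 14724 were measured per array, and precision is limited by how many arrays there are.

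Symbols were updated by Entrez ID in a RefSeq table (GRCm38.p6, 98.9% of 9604 probes with 1 gene). Probes of a gene were averaged, and probes without exactly 1 gene were kept as features. Arrays were centred again, which moved nothing. Tests used limma 3.58.1 (R 4.3.3) on the log2 ratios, two-sided, called at a Benjamini-Hochberg adjusted p under 0.05. The mean of the 15-day arrays was set against 0 where 3 or more arrays had a value. The 12-day model held knockout and dye terms, over features measured on 4 or more arrays, in both orientations. Both fits were tested on simulated data. Named were the 10 genes, up to 3 called genes of each list, paralogs by symbol stem, and the 5 genes most correlated with the set. Alternatives covered missing values, centring, scaling, quantile normalization, local medians, single probes, robust empirical Bayes, the design text's thresholds, dye terms, title numbers, the sign and each array left out.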

Additional observations from a re-analysis of the deposited data

Results flagged for a closer look

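An array stood apart from the others of its age in 3 of 18 sets of 4 or 5 values of a gene. The measure was the gap to its nearest neighbour against the whole range, with signs as deposited. Chance gives about 1 in 20 for independent sets, but these sets share arrays. The share of all features flagged this way was not computed, so the count is a description only. Cfap206 lay at 0.91 and Ccdc65 at 1.14 on 12-day replicate 3, above the other 4 arrays. The 12-day sets mix both dye orientations, and the rule was not run on values turned by the dyes. Tekt2 lay at -0.02 on 15-day replicate 4, above the other 3 arrays.

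Cetn4 had opposite signs at the 2 ages under the Cy5 over Cy3 reading, all 4 arrays at 15 days giving a higher value in the knockout and all 3 arrays at 12 days a lower one. The means differed by 2.18, and this difference was not tested. Most of the 12-day side came from replicate 3, at 1.43 as deposited, against -0.17 and -0.107 on replicates 4 and 5. The share of all features with opposite signs at the 2 ages was not computed. For Cetn4 the opposite signs are not seen with the 15-day sign turned.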

How the results depend on the processing

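All 10 genes stayed below 0 on every 15-day array under each alternative for centring, scaling, missing values, probes and arrays left out, so the count was 10 to 10 over the arrays left out. Turning the 15-day sign gave 0 below 0, with Cfap206 at 2.87, Ccdc65 at 1.80, Cfap52 at 1.76, Rsph1 at 1.73, Cetn4 at 1.61, Rsph3a at 1.56, Drc1 at 1.01, Rsph9 at 0.715, Dnaaf2 at 0.688 and Tekt2 at 0.55. At an adjusted p under 0.01 and 1.5-fold, 242 features and 5 list genes passed at 15 days, against 1515 and 13. Without 1 array, 357 to 1021 features and 6 to 13 list genes passed. Of the 1515 features 860 were above and 655 below 0, against 741 and 850 after quantile normalization. No feature and none of the 8 fitted genes passed limma at 12 days under any alternative run. Without turning by the dyes the 12-day means were 0.0358 for Cfap206, 0.337 for Rsph1, 0.12 for Rsph3a and 0.185 for Rsph9. They were 0.0842 for Ccdc65 and 0.198 for Dnaaf2, and below 0 for Cfap52 (-0.075) and Drc1 (-0.117). Without 1 array the estimates ran from -0.515 to 0.125 for Cfap206, -0.499 to 0.0607 for Rsph1 and -0.56 to 0.11 for Rsph3a. They ran from -0.25 to 0.10 for Rsph9 and -0.643 to 0.0668 for Ccdc65. Estimates stayed below 0 for Cfap52 (-0.235 to -0.055), Drc1 (-0.241 to -0.0707) and Dnaaf2 (-0.276 to -0.152). Each of the 8 was highest without replicate 3, and the cause was not tested. Each ratio already pairs the genotypes, as each array holds both. Replicates were numbered in order of deposit, so arrays of different ages were not paired with each other. Signal over background is unknown.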
